A study of Mus musculus with 32 samples.

Results

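Retinal organoids of the mouse line that carried the METTL3 fusion protein and received Dex were compared with organoids of the wild-type (WT) line at day 2 of differentiation. The comparison used 4 of the 32 libraries of the series, 2 per group, taken by their labels. It covered all 16276 genes that reached 1 FPKM in at least 2 of the 32 libraries, out of 55492 rows. FPKM scales the fragments of a gene to the length of its transcript, in kilobases, and to the mapped fragments of its library. Day 2 was picked with results known, as the day at which these 2 cultures were closest among days 0, 2, 4 and 6, so that closeness is a property of the choice and was not tested.

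WT was the Rx:GFP line, named for a green fluorescent reporter of the eye field gene Rx (Rax). The other line had Mettl3 knocked out and overexpressed WTMTL3-GRBD, a METTL3 fusion that the study describes as cytosolic without Dex and moved into the nucleus by Dex. Both cultures were grown in a serum-replacement medium with AGN at 0.1 µM. Dex was added at 10 µM to organoids of the fusion line only. No WT culture received Dex, so the knockout, the fusion and Dex cannot be told apart in this comparison. Another pair of day 2 cultures is given beside the results: the Mettl3 knockout (KO) and the fusion line without Dex, both with AGN. At day 0 the cells were embryonic stem cells, labelled as untreated in WT and as treated with Dex in the fusion group, and AGN is not named for them. Each duplicate of a group had its own library preparation and sequencing round. Separate cultures for duplicates, or single clones for lines, are not stated in the sources used here, so p-values measure only the spread between such duplicates, which may be technical.

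METTL3 is the catalytic subunit of the complex that writes N6-methyladenosine (m6A) into messenger RNA, a mark that alters the splicing, decay and translation of the transcripts that carry it. In embryonic stem cells, m6A on transcripts of pluripotency genes favours their turnover and so the exit from the stem cell state. When stem cells are aggregated for retinal culture, they pass from the naive state to a formative one, then to neuroectoderm and to the eye field. Cells of extraembryonic endoderm character often form at the surface of such aggregates.

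Mettl3 (ENSMUSG00000022160, chr14:52294841-52305128, minus strand) was measured at 40.19 and 41.21 FPKM in the WT libraries and at 53.8 and 50.85 FPKM in the fusion libraries with Dex. The log2 change was 0.35 ± 0.06 (SE, limma adjusted p = 0.000214). All log2 changes are differences on the log2(FPKM + 1) scale, fusion with Dex minus WT unless another pair is named. This scale understates the change of weakly expressed genes. Likewise, genes that rose, fell, or were higher or lower with Dex did so against WT, not against the fusion line without Dex. KO libraries read 38.9 and 40.82 FPKM. Which part of the gene was deleted is not given, so the gene-level value checks neither the knockout nor the fusion. Nr3c1, the glucocorticoid receptor, read 1.37 and 2.02 FPKM in WT and 1.48 and 1.72 FPKM with Dex, with overlapping libraries (log2 change -0.04 ± 0.09, adjusted p = 0.799). Neither the eGFP reporter row, at 0.06 to 0.27 FPKM over the 4 libraries, nor Rax, at 0.13 to 0.31 FPKM, marked an eye field at day 2 in either culture. At day 4 the means of Rax were 31.12 FPKM in WT and 74.47 FPKM with Dex.

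A gene was called when the limma test, fitted over all 32 libraries, gave a Benjamini-Hochberg adjusted p under 0.05. Of the 16276 genes, 4782 were called (29.4%), 1980 of them higher with Dex (12.2% of those tested) and 2802 lower (17.2%). Most of these differences were small: 82.7% of the called genes differed by less than 0.5, with a median absolute difference of 0.27. The libraries of the groups did not overlap for 4779 of the called genes, against 62.4% of all genes tested. Rescaling the libraries by their median ratio moved the higher share of the calls from 41.4% to 50.8% and the median of all genes from -0.012 to 0.005, so the balance of small rises and falls depends on the scaling. A called difference of at least 1 was found for 159 genes, 44 higher (0.27%) and 115 lower (0.707%). Of these, 15 and 28 had names of predicted genes, pseudogenes or small RNAs.

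**Figure D1:**
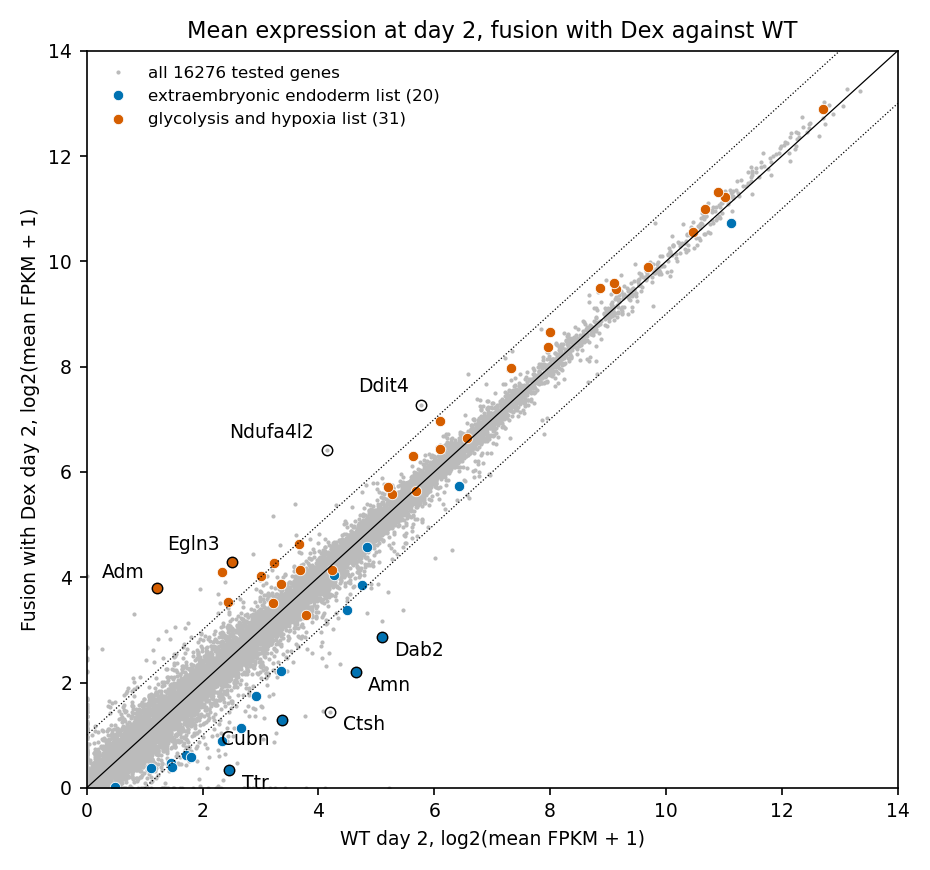
Mean expression of each of the 16276 tested genes at day 2 in WT (x axis) and in the fusion line with Dex (y axis), both as log2(mean FPKM + 1). The solid line marks equal levels and the dotted lines a difference of 1; coloured points are the 20 extraembryonic endoderm genes, all below the solid line, and the 31 glycolysis and hypoxia genes, mostly above it.

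The 4 libraries were alike in depth. They held an estimated 35.6 to 42.4 M fragments (28.7 to 55.3 M over the series), at which 3 fragments on a transcript of 2 kb give 0.042 to 0.05 FPKM. Duplicates correlated at r = 0.9941 in WT and 0.9946 with Dex, and the 2 group means at 0.9918, all across genes, which are not independent replicates. Genes of chromosome 8 lay higher with Dex: 284 of 858 were called higher and 71 lower, with a median 0.115 above that of all other genes, where the same value of the other autosomes lay between -0.027 and 0.012. The part of chromosome 8 in the results was not tested, and counts off chromosome 8 are given where a list has members there. Of the 12 tested genes of the Y chromosome 5 were called lower and none higher, with a median of -0.218. In the list of Y-linked genes and Xist, Ddx3y fell (log2 change -0.6, 9.05 and 8.98 FPKM in WT against 5.75 and 5.5 FPKM with Dex), and the other 4 of the 5 genes of that list were not called.

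Genes of the extraembryonic endoderm were lower in the fusion line with Dex than in WT. This is the lineage of the yolk sac, whose visceral part takes up nutrients through the receptors cubilin and amnionless and secretes carrier proteins. All 20 genes of this marker list were called lower with Dex, 12 of them by at least 1, with a median log2 change of -1.10 against -0.012 over all genes. Of all genes 17.2% were called lower, and 0.707% were called lower by at least 1. In bulk RNA, fewer cells of a type and less RNA per cell cannot be told apart. The 18 members off chromosome 8 were all called lower, with a median of -1.11.

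Ctsh, encoding the lysosomal protease cathepsin H (chr9:90054152-90076089, plus strand), fell furthest of the genes named and is not in the marker list. It read 17.72 and 17.12 FPKM in WT and 1.74 and 1.71 FPKM with Dex, 10.1-fold lower (log2 change -2.76 ± 0.13, adjusted p = 1.2e-11). Amn, encoding amnionless, read 22.71 and 25.24 FPKM in WT and 3.76 and 3.42 FPKM with Dex (-2.44 ± 0.15, adjusted p = 5.35e-10). Its partner Cubn, encoding cubilin, read 9.51 and 9.18 FPKM against 1.43 and 1.44 FPKM (-2.09 ± 0.05, adjusted p = 5.86e-16). The endocytic adaptor gene Dab2, which serves the same receptors, read 32.82 and 33.37 FPKM against 6.46 and 6.15 FPKM (-2.22 ± 0.09). In each of these genes both Dex libraries lay far below both WT libraries, and the duplicates lay close together.

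Genes of secreted carriers fell to low levels. Ttr, encoding the thyroxine and retinol carrier transthyretin, read 4.99 and 4 FPKM in WT and 0.29 and 0.24 FPKM with Dex (log2 change -2.11). Apoa4 and Apoa1, encoding lipoprotein components and not in the list, read 4.32 and 3.9 FPKM and 4.17 and 5.97 FPKM in WT, and 0.05 and 0.16 FPKM and 0.26 and 0.5 FPKM with Dex. Afp, encoding alpha-fetoprotein, was low already in WT at 0.56 and 0.25 FPKM and lay under the level of 3 fragments with Dex, at 0.01 and 0.02 FPKM; its call was lost in the fits of the 4 libraries alone and of the 8 libraries of day 2. Apoe, the most abundant member and one that stem cells express too, fell from 2222.78 and 2218.16 FPKM to 1739.76 and 1660.23 FPKM (-0.39).

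The transcription factors that specify this lineage fell too. Gata4 read 5.42 and 5.31 FPKM in WT and 1.11 and 1.28 FPKM with Dex (log2 change -1.54 ± 0.07, adjusted p = 2.74e-12). Gata6 read 3.65 and 4.41 FPKM against 0.9 and 0.8 FPKM (-1.44). Sox17 (-1.17), Foxa2 (-1.08), Hnf4a (-1.09), Foxq1 (-1.22) and Sox7 (-0.73) lay in the same direction. So did genes of the basement membrane that these cells lay down: Lama1 (-1.13), Col4a1 (-0.9), Col4a2 (-1.11) and Sparc (-0.71), with the smallest falls in Lamb1 (-0.22) and Lamc1 (-0.26). Col4a1 and Col4a2 lie side by side on chromosome 8 and are transcribed away from each other.

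The summed level of the 20 markers without Apoe was 285.86 and 283.22 FPKM in the WT libraries and 135.12 and 134.64 FPKM in the Dex libraries. With Apoe the sums were 2508.64 and 2501.38 FPKM against 1874.88 and 1794.87 FPKM. The other cultures of day 2, set against the same WT libraries, had sums without Apoe of 117.66 and 113.95 FPKM in KO and 112.35 and 121.92 FPKM in the fusion line without Dex. The list's median difference from WT was -1.32 in KO and -1.23 without Dex. Set against the fusion line without Dex, the culture with Dex had a list median of 0.25, on the higher side. For Amn, KO read 0.89 and 1.11 FPKM and the fusion line without Dex 1.45 and 1.32 FPKM; for Cubn these were 0.16 and 0.14 FPKM and 0.66 and 0.72 FPKM. The comparisons with WT share its libraries with the main one, so they are set side by side only.

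Further genes among the 15 largest falls were Pga5 (log2 change -2.42), Aqp8 (-2.23), Clic6 (-2.12), Srgn (-2.08), Npl (-1.94), Cited1 (-1.82) and Tuba3a (-1.77). Pga5 encodes a pepsinogen, Aqp8 a water channel, Srgn the proteoglycan core protein serglycin and Cited1 a transcriptional coregulator. Srgn read 41.23 and 44.45 FPKM in WT and 9.33 and 9.46 FPKM with Dex. Tuba3a belongs to a tubulin family with near-identical copies, among which reads may have been split. Cyp26a1, encoding the enzyme that clears retinoic acid, read 8.38 and 8.37 FPKM in WT and 0.95 and 0.73 FPKM with Dex, 9.97-fold lower (-2.35 ± 0.1, adjusted p = 2.69e-12).

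**Figure D2:**
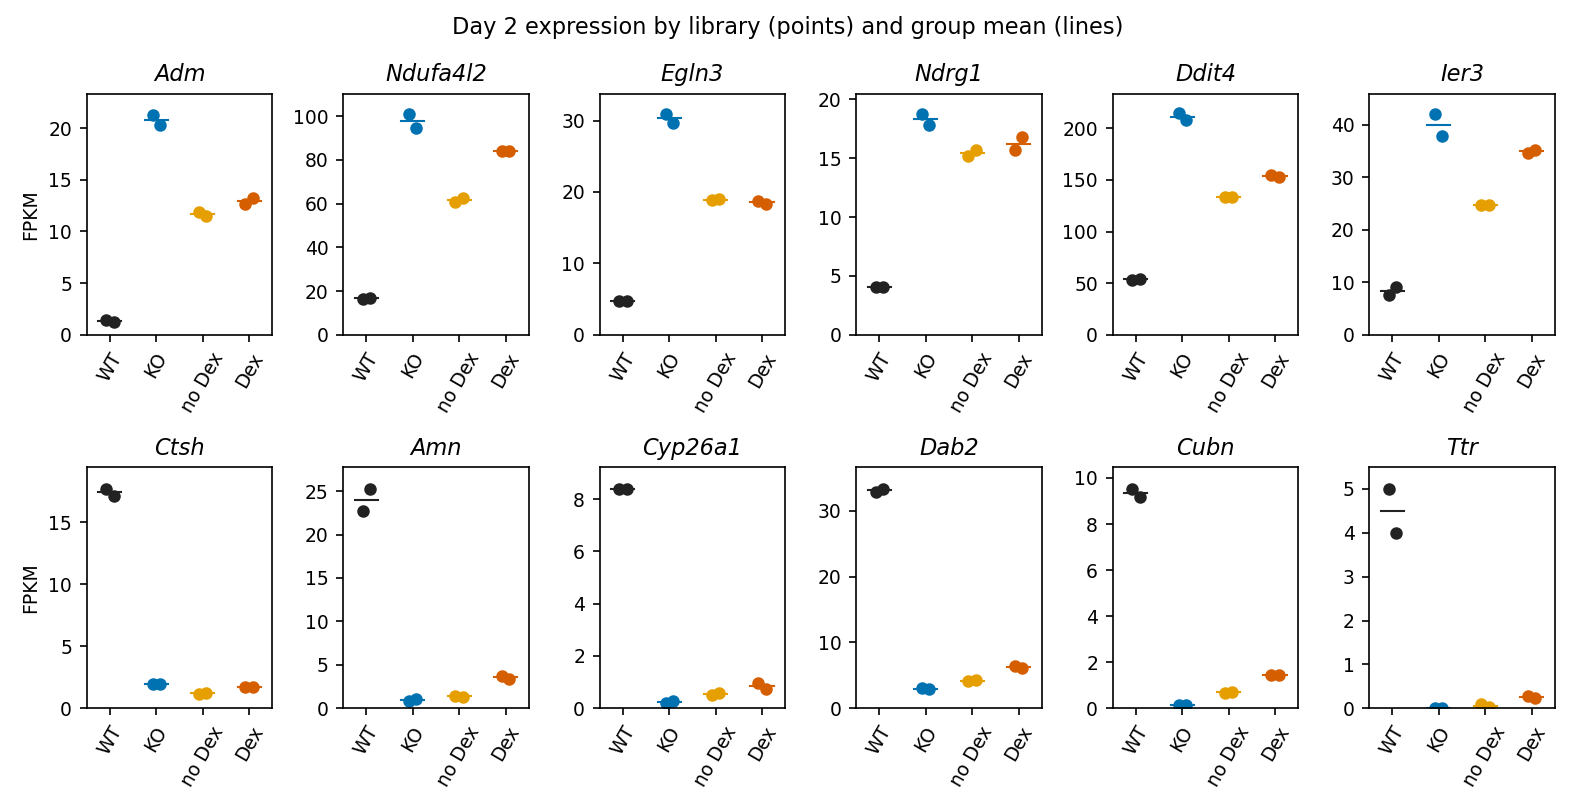
Expression in FPKM (y axis, linear from 0) of 6 genes that rose and 6 that fell, in every day 2 library of the 4 cultures (x axis); points are libraries and short lines group means. Adm lay at 1.4 and 1.23 FPKM in WT and at 12.62 and 13.19 FPKM with Dex, and Ctsh at 17.72 and 17.12 FPKM in WT and at 1.74 and 1.71 FPKM with Dex.

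Part of this difference was in place in the stem cells. At day 0, 16 of the 20 endoderm markers were called lower in the fusion line and 2 higher, with a median of -0.75, where 30.8% of all genes were called lower and 19% higher. Gata4 differed by -1.39 at day 0 and -1.54 at day 2, and the change between these days was not called (difference -0.15, adjusted p = 0.246). The gap of the uptake genes was smaller at day 0: Amn differed by -1.01, Dab2 by -0.69 and Cubn by -0.49, all called. To day 2 these differences widened, Cubn by -1.6, Dab2 by -1.53 and Amn by -1.43. Over the 20 markers, the difference moved down in 8 genes and up in 2, with a median shift of -0.27. Of all genes 13.7% moved down and 20.4% up. The 2 that moved up were Col4a1 (by 0.69) and Lamb1 (by 0.38). Ctsh had means of 0.54 FPKM in WT and 0.25 FPKM in the fusion line at day 0, a difference that was not called (-0.29), and it widened by -2.46 (adjusted p = 1.35e-08). Ttr was listed at 0 in both cultures at day 0, and its difference changed by -2.11. At day 4 all 20 markers were called lower, against 19.1% of all genes, with a median of -1.12, and Ctsh stood at 17.38 FPKM in WT and 1.52 FPKM with Dex.

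Markers of other cell types moved less. The day 2 counts with Dex for these lists and those below stand beside 12.2% of all genes called higher and 17.2% lower. Counts near these shares are no result about a list. Of 12 mesendoderm genes 6 were tested, with a median of -0.09: Eomes, a T-box factor of the streak and trophoblast, rose (log2 change 0.39), and Sox17 and Foxa2, which stand in the endoderm list too, fell. In the trophoblast list 1 of 7 tested genes was called higher and 1 lower, with a median of -0.06 that turned to positive values in some fits. In the neural crest list 2 of 9 were called higher (median -0.01), and in the fibroblast list 2 of 11 higher and 3 lower (median 0). The surface ectoderm and keratin list was called higher for 7 of 9 tested genes and lower for 1, with a median of 0.29 (off chromosome 8, 6 and 1 of 8). Within it Cldn7, encoding a tight junction claudin, read 37.18 and 37.74 FPKM in WT and 54.3 and 51.07 FPKM with Dex (0.48), and Cdh1, encoding E-cadherin, 120.58 and 120.23 FPKM against 152.14 and 147.43 FPKM (0.31). Cdh1 is also the cadherin of pluripotent cells.

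Most genes of glycolysis and the response to low oxygen were higher with Dex. Prolyl hydroxylases, among them the products of Egln1 and Egln3, mark hypoxia-inducible factors (HIFs) for destruction when oxygen is present. When it is scarce, HIFs bind short elements in gene control regions and raise glucose uptake, glycolysis and vessel growth signals. Of the 31 genes of the glycolysis and hypoxia list, 27 were called higher with Dex, 1 lower and 3 not called, with a median log2 change of 0.45 against -0.012 over all genes. Off chromosome 8, 25 of 29 were called higher. Over all genes 12.2% were called higher and 17.2% lower. Of the 31 genes 6 rose by at least 1, where 44 of all genes did (0.27%). Oxygen, aggregate size and cell density were not among the values used here.

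To show the kind of element by which HIFs are known to act, the 250 bases before the RefSeq start (GRCm38.p6) of 4 called genes are printed 5′ to 3′ on the coding strand. Capitals mark ACGTG or GCGTG, or their reverse complements CACGT and CACGC. The match to ACGTG overlaps its own complement within CACGTG. The genes are Adm (chr7:110627407-110627656, plus strand), Egln3 (chr12:54203875-54204124, minus strand), Pgk1 (chrX:106186850-106187099, plus strand) and P4ha1 (chr10:59323046-59323295, plus strand).
Adm: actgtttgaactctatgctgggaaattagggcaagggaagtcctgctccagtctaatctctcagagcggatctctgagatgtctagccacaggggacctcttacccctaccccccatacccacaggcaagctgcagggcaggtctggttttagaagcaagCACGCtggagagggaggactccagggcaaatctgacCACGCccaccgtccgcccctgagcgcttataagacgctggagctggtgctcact
Egln3: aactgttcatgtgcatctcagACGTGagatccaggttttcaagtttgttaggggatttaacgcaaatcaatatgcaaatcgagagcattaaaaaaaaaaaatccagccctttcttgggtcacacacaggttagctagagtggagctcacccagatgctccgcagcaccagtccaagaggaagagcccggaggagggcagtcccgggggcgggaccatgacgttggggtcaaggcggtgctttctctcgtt
Pgk1: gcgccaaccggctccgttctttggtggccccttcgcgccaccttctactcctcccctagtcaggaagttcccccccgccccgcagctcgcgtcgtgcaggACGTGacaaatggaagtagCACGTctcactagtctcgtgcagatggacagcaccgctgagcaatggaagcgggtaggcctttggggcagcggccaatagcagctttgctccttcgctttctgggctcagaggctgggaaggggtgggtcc
P4ha1: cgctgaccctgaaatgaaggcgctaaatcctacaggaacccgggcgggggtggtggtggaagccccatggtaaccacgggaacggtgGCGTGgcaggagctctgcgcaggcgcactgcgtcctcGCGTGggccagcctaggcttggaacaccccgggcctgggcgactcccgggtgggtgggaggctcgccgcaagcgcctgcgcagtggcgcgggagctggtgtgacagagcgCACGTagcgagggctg
Of the 31 list genes 27 had a promoter in the RefSeq table, 39 promoters in all, and 30 of these held at least 1 match. Of all 32851 promoters of that source, cropped to the same length, 38.6% did. The list was drawn up as genes of this response, so its share of matches is no result of these data. Some genes count with more than 1 promoter, and the 4 printed all hold a match. A match is a run of letters and not a bound site, and binding was not tested.

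Adm, encoding the vasodilator peptide adrenomedullin (chr7:110627661-110629820, plus strand), rose furthest. It read 1.4 and 1.23 FPKM in WT and 12.62 and 13.19 FPKM with Dex, 9.81-fold higher (log2 change 2.59 ± 0.08, adjusted p = 1.48e-14). Ndufa4l2, whose product lowers the activity of the respiratory chain in hypoxia, read 16.45 and 16.84 FPKM against 83.82 and 84.14 FPKM (2.27 ± 0.21, adjusted p = 1.8e-07). Cox4i2, encoding the hypoxic isoform of a cytochrome oxidase subunit, read 1.27 and 0.79 FPKM against 4.78 and 3.94 FPKM (1.41). Ndufa4l2 and Cox4i2 are not in the glycolysis and hypoxia list but count in that of nuclear respiratory chain genes. In these 3 genes both libraries with Dex stood clear of both WT libraries.

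Genes of the oxygen sensors and of cell stress in hypoxia rose as well. Egln3 read 4.66 and 4.74 FPKM in WT and 18.73 and 18.35 FPKM with Dex (log2 change 1.78 ± 0.07, adjusted p = 3.71e-13), and Egln1 11.5 and 11.91 FPKM against 23.75 and 23.69 FPKM (0.96). Ndrg1, a stress-response gene, read 4.1 and 4.04 FPKM against 15.67 and 16.82 FPKM (1.77). Ddit4, encoding an inhibitor of the growth kinase complex mTORC1, read 53.24 and 54.07 FPKM against 154.92 and 152.83 FPKM (1.5 ± 0.04, adjusted p = 1.48e-14). Ddit4 is a glucocorticoid target as well as a hypoxia target, and is not in the hypoxia list. Bnip3, a mitophagy receptor gene, rose by 0.86, the collagen hydroxylase genes P4ha2 and P4ha1 by 1.09 and 0.45, and Ankrd37, on chromosome 8 with Egln1, by 1.04.

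In the glycolytic chain the changes were smaller and the levels high. The glucose transporter genes Slc2a1 and Slc2a3 rose by 0.66 and 0.67 on the log2 scale. Pfkl, the liver form of phosphofructokinase, read 159.17 and 158.26 FPKM in WT and 247.83 and 250.41 FPKM with Dex (0.65), and Pgk1, phosphoglycerate kinase, 463.46 and 465.5 FPKM against 713.29 and 719.25 FPKM (0.62). Ldha, lactate dehydrogenase A, read 1898.59 and 1897.97 FPKM against 2567.32 and 2566.62 FPKM (0.44). Aldoc, the brain aldolase, rose by 1.01, whereas Gapdh rose by 0.19. Pgm1, which links glycogen to glycolysis and is not in the list, read 11.52 and 10.85 FPKM against 27.58 and 26.29 FPKM (1.2). Hk1, the housekeeping hexokinase, fell (-0.49), while Hk2 rose (0.32). Pfkp (0.08), Pdk1 (-0.04) and Kdm3a (-0.1) were not called. Gapdh, Pgk1 and Ldha have processed pseudogenes with near-identical sequence, which may have taken a share of their reads.

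The list had no common direction in the stem cells. At day 0, 12 of the 31 genes were called higher and 13 lower, with a median of 0.03. The difference between the cultures changed from day 0 to day 2 in 30 genes, 29 of them upward, with a median shift of 0.49, where 34.1% of all genes changed and 20.4% did so upward. From day 2 to day 4 it changed downward in 21 genes and upward in 4, with a median shift of -0.37, against 13.3% and 21.7% of all genes. Adm had means of 0.13 FPKM in WT and 0.17 FPKM in the fusion line at day 0, and 9.56 and 19.92 FPKM at day 4. Its difference grew by 2.53 from day 0 to day 2 (adjusted p = 6.14e-12) and shrank by -1.6 from day 2 to day 4 (adjusted p = 1.81e-09). In WT the day 4 means were 64.84 FPKM for Ndufa4l2 and 20.9 FPKM for Egln3. Slc2a3 kept its difference, with day 4 means of 216.33 FPKM in WT and 351.37 FPKM with Dex. That difference was 0.67 at day 2 and 0.7 at day 4, and its change was not called (0.03, adjusted p = 0.473). Pdk1 fell in WT, at 16.9 FPKM at day 4 against 50.25 FPKM at day 2.

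**Figure D3:**
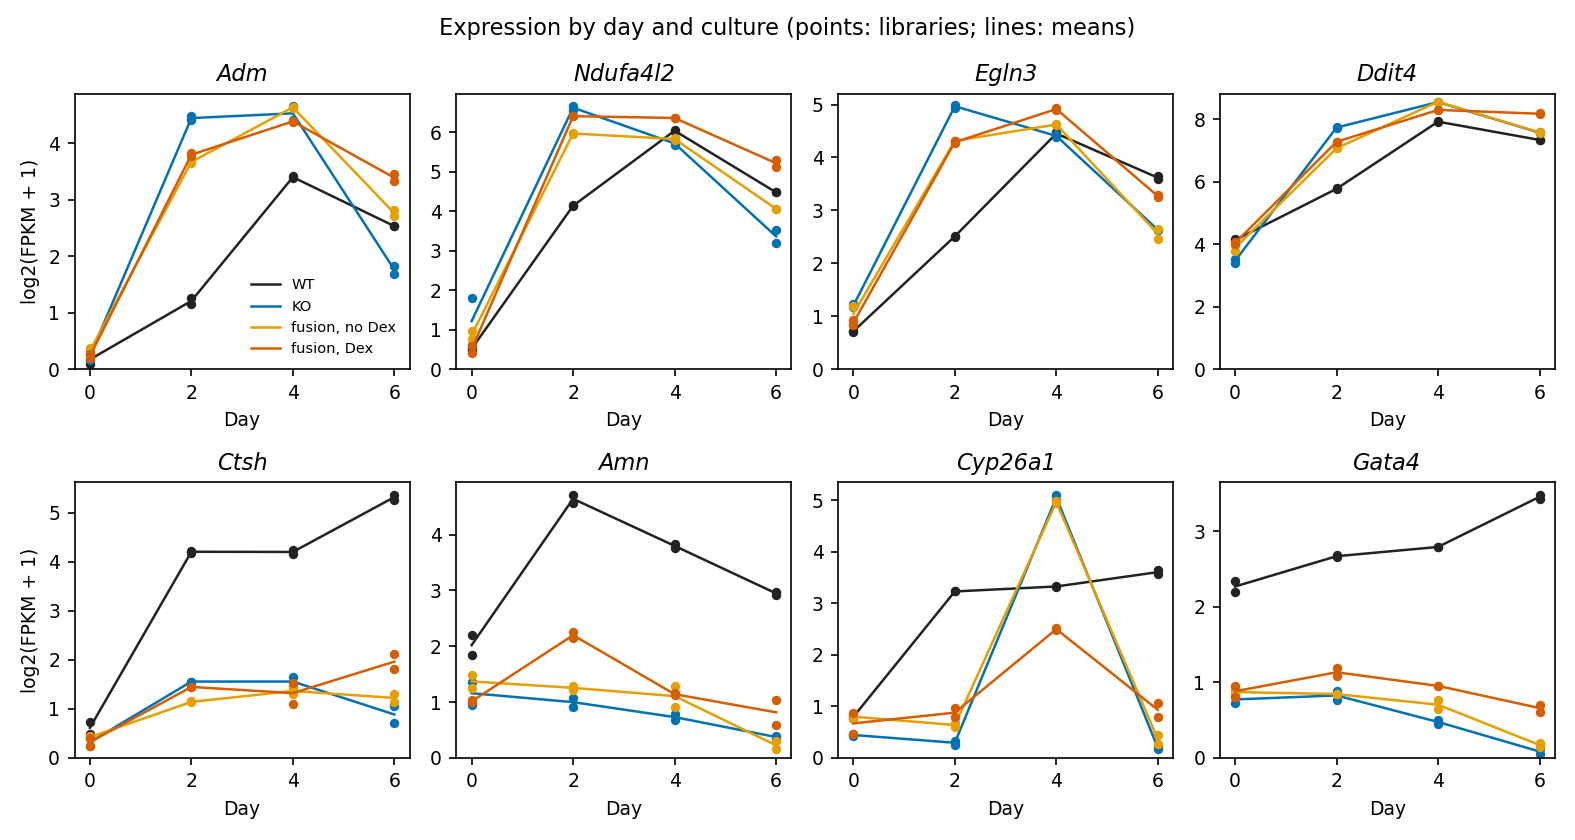
Expression as log2(FPKM + 1) (y axis) of 4 genes that rose and 4 that fell at day 2, by day (x axis) in all 4 cultures; points are libraries and lines join the means. Adm, Ndufa4l2, Egln3 and Ddit4 separate WT from the other cultures at day 2 and less at day 4, whereas Ctsh, Amn and Gata4 stay lower with Dex through day 4.

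Set beside the same WT libraries, the median of the list was 0.56 in KO and 0.46 in the fusion line without Dex, against 0.45 with Dex. Adm read 21.24 and 20.34 FPKM in KO and 11.92 and 11.53 FPKM without Dex. Egln3 read 30.87 and 29.72 FPKM and 18.81 and 18.96 FPKM. Ldha read 2029.43 and 2010.29 FPKM in KO and 2008.39 and 2032.86 FPKM without Dex, a difference from WT of 0.09 in each, beside 0.44 with Dex.

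The other genes among the 15 largest rises were of mixed kinds. Ier3, an immediate early gene with a role in cell survival, read 7.51 and 9.05 FPKM in WT and 34.59 and 35.16 FPKM with Dex (log2 change 1.96). Anxa2, encoding the membrane-binding annexin A2, read 11.08 and 11.05 FPKM against 41.15 and 40.51 FPKM (1.79). Socs3, the feedback inhibitor of LIF and STAT3 signalling, read 2.56 and 1.94 FPKM against 6.97 and 7.42 FPKM (1.34). Socs3 had stood at means of 88.63 FPKM in WT and 93.12 FPKM in the fusion line at day 0, far above its level of day 2 in either culture. Muc2, a mucin gene, rose by 1.18, and Fabp7, a fatty acid binding protein gene of neural progenitors, by 1.22. Vps39, Pagr1a and Krtdap had uneven libraries. Krtdap read 1.86 and 8.53 FPKM with Dex against 0.19 and 0.2 FPKM in WT, and without the second Dex library its log2 change was 1.26 and no longer called. Vps39 lost its call when either Dex library or the first WT library was left out (values from 1.18 to 1.61), and Pagr1a without the second library of either group (1.24 and 1.07).

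The core of the pluripotency network changed little. Pou5f1, encoding OCT4, read 801.56 and 798.93 FPKM in WT and 813.29 and 787.04 FPKM with Dex (log2 change 0.00, adjusted p = 1). Nanog read 15.3 and 16.06 FPKM against 16.73 and 16.93 FPKM (0.1, adjusted p = 0.118; it was called higher after rescaling). Sox2, which also marks neural cells, fell from 155.64 and 154.63 FPKM to 127.53 and 125.5 FPKM (-0.29). Of the 12 core genes 6 were called lower and 1 higher, with a median of -0.13; after rescaling these were 4 and 2.

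Genes of the naive state, which mark the inner cell mass and fade as cells become formative, were mostly lower. Of 18 genes 12 were called lower, 2 higher and 4 not called, with a median of -0.37 against -0.012 over all genes (off chromosome 8, 11 of 16 lower and 2 higher). Tbx3, a T-box repressor of differentiation, read 3.88 and 3.59 FPKM in WT and 1.1 and 0.91 FPKM with Dex (-1.24 ± 0.16, adjusted p = 9.02e-06). Tcl1, a cofactor of the kinase AKT, read 13.89 and 11.87 FPKM against 5.16 and 5.26 FPKM (-1.16). Nr0b1, encoding the orphan receptor DAX1, read 22.01 and 20.7 FPKM against 9.73 and 9.51 FPKM (-1.07). Esrrb (-0.78), Nr5a2 (-0.81) and Zfp42, the gene of REX1 (-0.68), fell by less. Klf2, at 57.16 and 56.72 FPKM against 55.75 and 53.96 FPKM, was not called. Dppa3, the maternal factor STELLA, went the other way, from 8.42 and 7.89 FPKM to 17.29 and 16.1 FPKM (0.95). Its difference had been larger at day 0 (2.25, a change of -1.3, adjusted p = 2.72e-06). Over the list, 10 of the 18 were called lower at day 0 and 4 higher (median -0.28), where 30.8% and 19% of all genes were. From day 0 to day 2 the difference moved down in 9 genes and up in 3, against 13.7% and 20.4% of all genes. Tbx3 (-0.94) and Nr5a2 (-0.75) were called lower at day 0, and their changes to day 2 were not called (-0.3 and -0.06).

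In KO and the fusion line without Dex, members of this list lay on both sides of WT, with medians of -0.08 and 0.08 against the same WT libraries. In KO 6 of 18 were called higher and 7 lower, where 37.5% and 21.3% of all genes were; without Dex these were 9 and 6, against 29.8% and 16.2%. Tcl1 differed from WT by -1.46 in KO and -0.77 without Dex, and Nr0b1 by -0.8 and -0.46. Klf2 differed by 0.95 and 0.5, and Dppa3 by 1.47 and 1.71. Esrrb read 23.63 and 22.78 FPKM in KO and 25.9 and 25.36 FPKM without Dex, where WT read 23.24 and 23.7 FPKM and the Dex culture 13.29 and 13.14 FPKM. Nanog read 32.69 and 34.07 FPKM in KO and 31.65 and 31.75 FPKM without Dex. The formative list was mixed, with 3 of 16 genes called higher and 6 lower and a median of -0.02 (0.01 after rescaling). Otx2, a formative and forebrain factor, read 133.99 and 131.29 FPKM in WT and 132.66 and 134.82 FPKM with Dex, and Fgf5 35.74 and 37.67 FPKM against 35.74 and 37.42 FPKM, both not called.

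Nodal signalling maintains the primed state and blocks neural fate. Nodal is the ligand, Tdgf1 its coreceptor, and Lefty1, Lefty2 and Smad7 are targets that feed back to inhibit it. Of the 11 tested genes of the pathway 7 were called lower, 1 higher and 3 not called, with a median of -0.52. Nodal read 7.46 and 7.61 FPKM in WT and 3.75 and 3.96 FPKM with Dex (log2 change -0.81 ± 0.06, adjusted p = 4.84e-09). Lefty2 read 15.08 and 16.29 FPKM against 5.5 and 6.13 FPKM (-1.29 ± 0.08, adjusted p = 5.58e-10). Lefty1 (-0.91, not called in the 4 libraries alone) and Smad7 (-0.85) fell with it, as did the related ligand gene Gdf3 (-0.52) and the convertase gene Pcsk6 (-0.52). Tdgf1 rose (0.29). The signalling factor gene Foxh1, the receptor gene Acvr2b and the convertase gene Furin were not called, at 0.04, -0.04 and -0.02.

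Against the same WT libraries the list's median was 0.71 in KO and 0.41 in the fusion line without Dex. In each culture 9 of the 11 members were called higher and 2 lower. The matching shares over everything tested stood at 37.5% and 21.3% for KO, and at 29.8% and 16.2% without Dex. The count of 2 lower lies near these shares and is no result about the list. The 2 lower genes were Gdf3, at -0.47 in KO and -0.27 without Dex, and Foxh1, at -0.16 and -0.13. Nodal read 13.93 and 13.3 FPKM in KO and 8.95 and 9.38 FPKM without Dex, and Lefty2 21.97 and 23.31 FPKM and 25.05 and 23.52 FPKM. For Nodal, the Dex libraries were the lowest of the 8 libraries of day 2 and those of KO the highest. At day 0 Nodal was not called (0.06), at means of 41.67 FPKM in WT and 43.6 FPKM in the fusion line, and the difference changed by -0.88 (adjusted p = 2.31e-07). Lefty1 had been higher at day 0 in the fusion line (0.78), a change of -1.69.

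**Figure D4:**
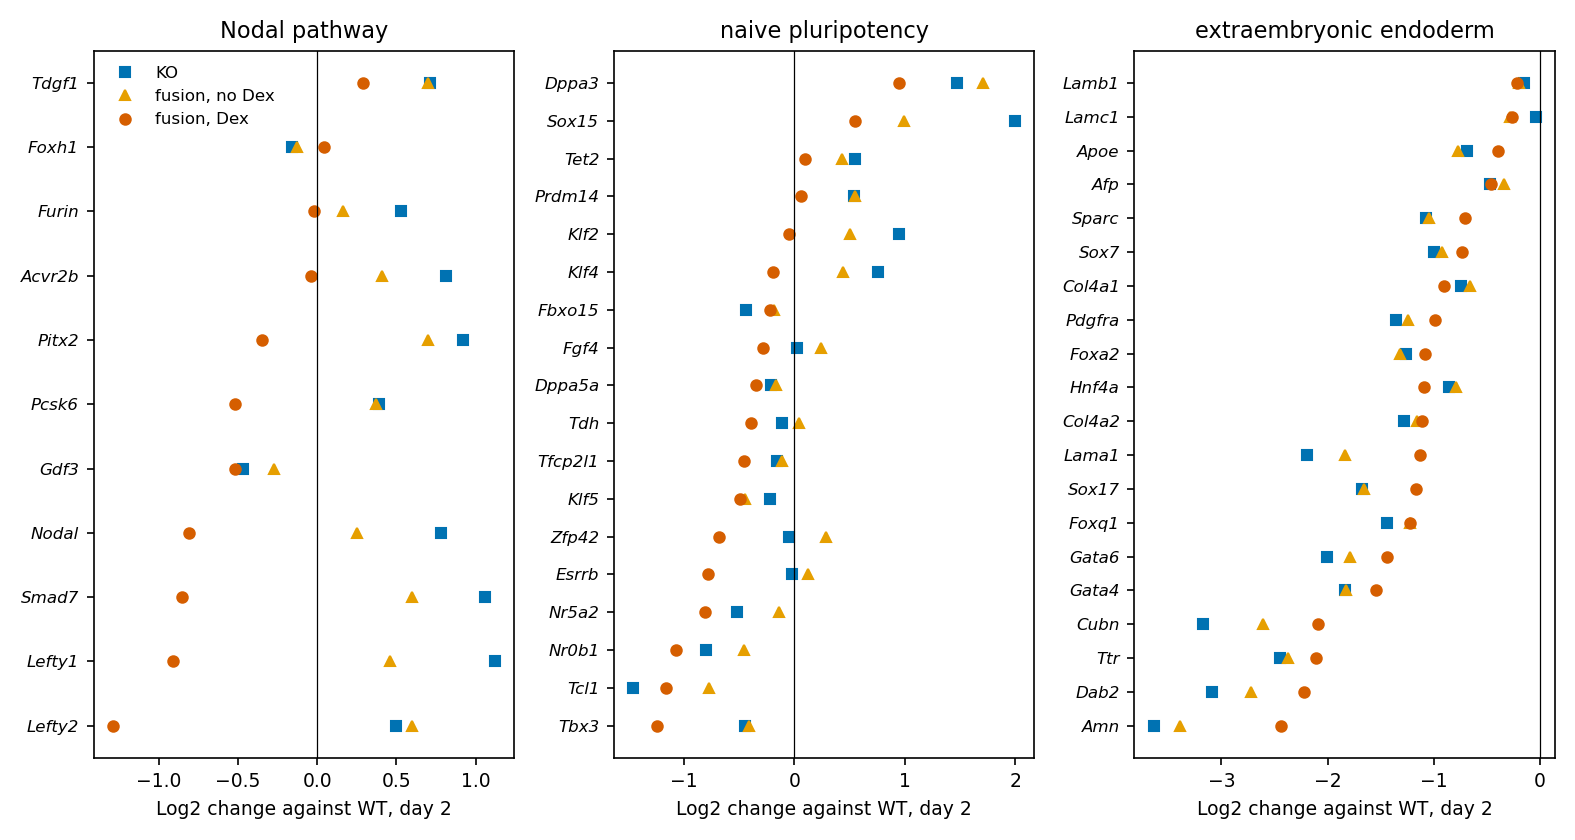
Log2 change against WT at day 2 (x axis) of each gene (y axis) of the Nodal, naive pluripotency and extraembryonic endoderm lists, for KO, the fusion line without Dex and the fusion line with Dex, all against the same 2 WT libraries. Lefty2 lies at -1.29 with Dex and at 0.5 and 0.6 in KO and without Dex, whereas the endoderm genes lie below 0 in all 3 cultures.

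The counts of the other signalling lists stand beside 12.2% of all genes called higher and 17.2% called lower, and those near these shares are no result about the list. Fibroblast growth factor (FGF) signalling acts through ERK, and its activity is read from feedback inhibitors such as Dusp6 and Spry4. Of 19 genes 10 were called lower and 2 higher, with a median of -0.17 (off chromosome 8, 9 and 2 of 17). The list was lower already at day 0, with 14 of the 19 called lower and 5 higher and a median of -0.3. Of all genes 30.8% were called lower and 19% higher at day 0. At day 2 Phlda1 fell most (log2 change -1.18), ahead of Etv4 (-0.62), Spry4 (-0.45), Dusp6 (-0.4) and Dusp4 (-0.36). Fgf4, the ligand of stem cells, fell by 0.28 on the log2 scale. Of 16 Wnt targets and antagonists 5 were called lower and 2 higher, with a median of 0.03 (off chromosome 8, 5 and 1 of 14). Notum, encoding an enzyme that inactivates Wnt, read 26.58 and 26.46 FPKM in WT and 12.31 and 14.26 FPKM with Dex (-0.95), and the receptor gene Lgr4 fell by 0.74. Axin2, a general Wnt target, read 2.07 and 2.27 FPKM against 1.97 and 2.5 FPKM and was not called. Notum read 26.33 and 26.16 FPKM in KO and 25.85 and 24.33 FPKM without Dex.

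In the retinoic acid list 3 of 15 genes were called higher and 4 lower, with a median of -0.01. Besides Cyp26a1, the synthesis gene Rdh10 fell (log2 change -0.63) and the binding protein gene Crabp2 rose, from 72.84 and 71.9 FPKM to 105.63 and 104.08 FPKM (0.53). The AGN in the medium was the same in both cultures. In the BMP list, Id1, a BMP target, rose from 33.75 and 32.99 FPKM to 47.95 and 46.64 FPKM (0.49) and Id4 fell (-0.56), with 3 of 13 called higher and 2 lower and a median of 0.03. Bmp4 read 39.99 and 37.41 FPKM against 19.93 and 23.2 FPKM and was not called (-0.82 ± 0.33, adjusted p = 0.0678), although its libraries did not overlap; the 2 compared groups alone, or the 8 libraries of day 2, called it. In the Notch list 3 of 14 genes were called higher, Nrarp with the largest rise (0.39), and the median was 0.16. In the Hedgehog list 1 of 8 was higher (Smo, 0.3) and 3 lower, among them Gli1 (-0.4, not called in the 4 libraries alone), and the median was 0.03.

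Some neural genes were slightly higher, and eye field genes such as Six3, Six6 and Lhx2 were under 1 FPKM. Of 14 neural progenitor genes 7 were called higher and 1 lower, with a median of 0.25 (off chromosome 8, 6 and 1 of 13). Nes, encoding the intermediate filament nestin, read 16.27 and 16.46 FPKM in WT and 25.87 and 25.34 FPKM with Dex (log2 change 0.62), and Sox3, an early neural factor, 28.15 and 28.43 FPKM against 37.76 and 37.65 FPKM (0.4, not called with a pseudocount of 0.1). Sox21 fell (-0.51). Of 12 anterior neural plate genes 6 were called higher and none lower, with a median of 0.14 (4 higher and a median of 0.08 over the 10 off chromosome 8). Irx3, a patterning factor on chromosome 8, read 0.59 and 0.63 FPKM against 2.45 and 2.55 FPKM (1.12), and Sox11 rose by 0.34. In the eye field list 2 of 14 genes were called higher and 2 lower, with a median of 0.04 (off chromosome 8, 2 and 2 of 13). Six3 read 0.09 to 0.2 FPKM over the 4 libraries, Six6 0.08 to 0.18 FPKM and Lhx2 0.29 to 0.58 FPKM. By day 4, 9 of the 14 eye field genes and 10 of the 12 anterior neural plate genes were called higher with Dex and none lower, where 25.7% of all genes were called higher and 19.1% lower. Pax6, the eye master regulator, had day 4 means of 5.08 FPKM in WT and 40.57 FPKM with Dex. At day 2 it read 0.59 and 1.47 FPKM against 1.75 and 1.58 FPKM (0.43), a call that was lost in 3 of the 4 fits that left out 1 library (0.11 to 0.74).

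Imprinted genes, expressed from 1 parental copy, were called higher for 10 of 30, lower for 10 and not called for 10, with a median of -0.01. Over all genes 12.2% were called higher and 17.2% lower. The maternally expressed RNAs of the Dlk1-Dio3 cluster on chromosome 12 rose together. Meg3 read 894.14 and 896.42 FPKM in WT and 1688.07 and 1701.4 FPKM with Dex (log2 change 0.92 ± 0.02, adjusted p = 9.78e-16), Mirg 163.32 and 159.21 FPKM against 310 and 314.69 FPKM (0.95), and Rian 413.5 and 402.97 FPKM against 657.57 and 654.96 FPKM (0.68). Dlk1, the paternally expressed gene of that cluster, was not called (0.22). The rise of Meg3 was as large at day 0 (0.97), and its change between the days was not called (-0.05). Meg3 read 1032.11 and 1009.07 FPKM in KO and 1057.84 and 1093.76 FPKM without Dex. Gnas (0.67) and Nnat (0.47) rose too.

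H19, a maternally expressed RNA of chromosome 7, reversed between the days. It was higher in the fusion line at day 0 (means of 58 FPKM in WT and 139.32 FPKM) and lower with Dex at day 2, at 59.74 and 61.33 FPKM against 122.84 and 123.33 FPKM in WT (log2 change -1.01, change between the days -2.26, adjusted p = 2.12e-10). Its neighbour Igf2, a paternally expressed growth factor gene, fell from 4.27 and 4.56 FPKM to 0.82 and 1.12 FPKM (-1.46). Sfmbt2 (-1.58) and Cdkn1c, an inhibitor of the cell cycle (-0.83), fell as well. Among 8 DNA methylation genes 7 were called lower and none higher, with a median of -0.23. At day 0 too 7 were called lower and none higher, with a median of -0.43, where 30.8% of all genes were called lower. To day 2 the difference moved up in 4 of the 8 and down in 2, against 20.4% and 13.7% of all genes. At day 2 Dnmt3l, the cofactor of the de novo methyltransferases, read 235.08 and 229.04 FPKM in WT and 126.4 and 125.41 FPKM with Dex (-0.88). At day 0 Dnmt3l had been level, at 222.11 and 221.48 FPKM in WT and 218.79 and 220.19 FPKM in the fusion line. The following values are again of day 2. Dnmt3a fell by 0.49, Uhrf1 by 0.21 and Dnmt3b by 0.13 on the log2 scale.

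The m6A machinery itself changed little. Of 11 writer genes 3 were called higher and 1 lower, with a median of 0.05. Over all genes 12.2% were called higher and 17.2% lower. After Mettl3 the largest difference was in Mettl16, a separate methyltransferase gene, at 26.32 and 25.9 FPKM in WT and 20.8 and 21.89 FPKM with Dex (log2 change -0.28). Mettl14, encoding the partner of METTL3, read 23.51 and 22.84 FPKM against 22.85 and 22.43 FPKM and was not called (-0.03). Of 12 readers and erasers, with a median of -0.07, 2 were called higher, the eraser genes Fto (0.26) and Alkbh5 (0.19), and 4 lower (off chromosome 8, 1 and 4 of 11). Of the lower genes, Igf2bp2 (-0.46) and Fmr1 (-0.23) remained lower after rescaling while Ythdf1 and Ythdf3 did not. Alkbh5 and Fmr1 were not called in the 4 libraries alone.

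Known glucocorticoid targets gave no common direction. Of 17 tested genes 3 were called higher and 4 lower (3 and 1 after rescaling; off chromosome 8, 3 and 4 of 15), with a median of -0.09. These counts lie near the 12.2% called higher and 17.2% called lower over all genes, so they are no result about the list. The higher genes were Ddit4, Dusp1, a phosphatase gene that restrains MAP kinases (log2 change 0.42), and Rasd1 (0.51). These genes read above WT in the cultures without Dex too. Ddit4 read 214.53 and 208.18 FPKM in KO and 133.6 and 133.02 FPKM in the fusion line without Dex. Dusp1 read 21.99 and 20.36 FPKM and 15.64 and 15.74 FPKM, against 12.46 and 12.27 FPKM in WT. Rasd1 read 2.13 and 1.85 FPKM and 1.34 and 1.21 FPKM, against 0.97 and 0.79 FPKM in WT. Tsc22d3, encoding the glucocorticoid-induced protein GILZ, read 5.81 and 5.4 FPKM in WT and 5.93 and 5.6 FPKM with Dex (0.03), and Per1 6.47 and 6 FPKM against 7.04 and 6.52 FPKM (0.1), both not called. Sgk1, a kinase gene, fell (-0.55). Fkbp5 (-0.11), Klf9 (-0.11) and Cebpd (-0.23) were called lower but lost the call after rescaling, and each also did without single libraries (-0.13 to -0.09, -0.13 to -0.10 and -0.26 to -0.21).

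Ribosomal and metabolic lists had small median changes. Their counts stand beside 12.2% of all genes called higher and 17.2% lower. Of 83 cytosolic ribosomal protein genes 75 were called higher and 2 lower, with a median of 0.16 (off chromosome 8, 73 and 2 of 81). The 2 genes called lower were Rpl39l (-0.92) and Rpl10l (-0.69), paralogs of restricted expression. The list's median at day 0 was 0.34, and against the same WT libraries it was -0.05 in KO and -0.11 without Dex. Of 82 nuclear genes of the respiratory chain 18 were called higher and 8 lower, among these Atp5b (-0.27), with a median of 0.05 (off chromosome 8, 15 and 8 of 79). The 18 include 2 that rose by at least 1, Ndufa4l2 (2.27) and Cox4i2 (1.41), described above with the hypoxia genes. Of 13 mitochondrial genes 2 were called lower (median -0.1). Of 26 genes of cholesterol and fatty acid synthesis 11 were called higher and 3 lower, Msmo1 with the largest rise (0.44), and the median was 0.06 (off chromosome 8, 9 and 3 of 24).

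The counts of the stress and growth lists stand beside 12.2% of all genes called higher and 17.2% lower. These lists had no common direction, apart from the immediate early genes. Of 12 of these 7 were called higher and 1, Myc, lower (log2 change -0.61), with a median of 0.28. Off chromosome 8 these were 5 and 1 of 10, with a median of 0.23. Egr1, a target of ERK, read 5.24 and 5.45 FPKM in WT and 9.52 and 8.57 FPKM with Dex (0.66), after a larger difference at day 0 (3.32). Of 16 p53 targets 4 were called higher and 5 lower (median -0.02, 0.01 after rescaling), and Cdkn1a, the cell cycle inhibitor p21, read 28.03 and 27.97 FPKM against 27.29 and 28.41 FPKM, not called. Perp, a junction and apoptosis gene, rose by 0.66. Of 19 integrated stress response genes 8 were called higher and 6 lower (median -0.04), with Atf4, the central factor, down by 0.31 on the log2 scale and Stc2 up by 0.76. In the interferon list 3 of 8 genes were called higher and 1 lower (median 0; off chromosome 8, 2 and 1 of 7), and in the cell cycle list 1 of 12 higher and 3 lower (median -0.02). In the germ cell list 2 of 10 were called higher and 2 lower (median -0.06; off chromosome 8, 1 and 2 of 9), and in the list of genes of the 2-cell-like state 3 of 5 higher (median 0.36).

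**Figure D5:**
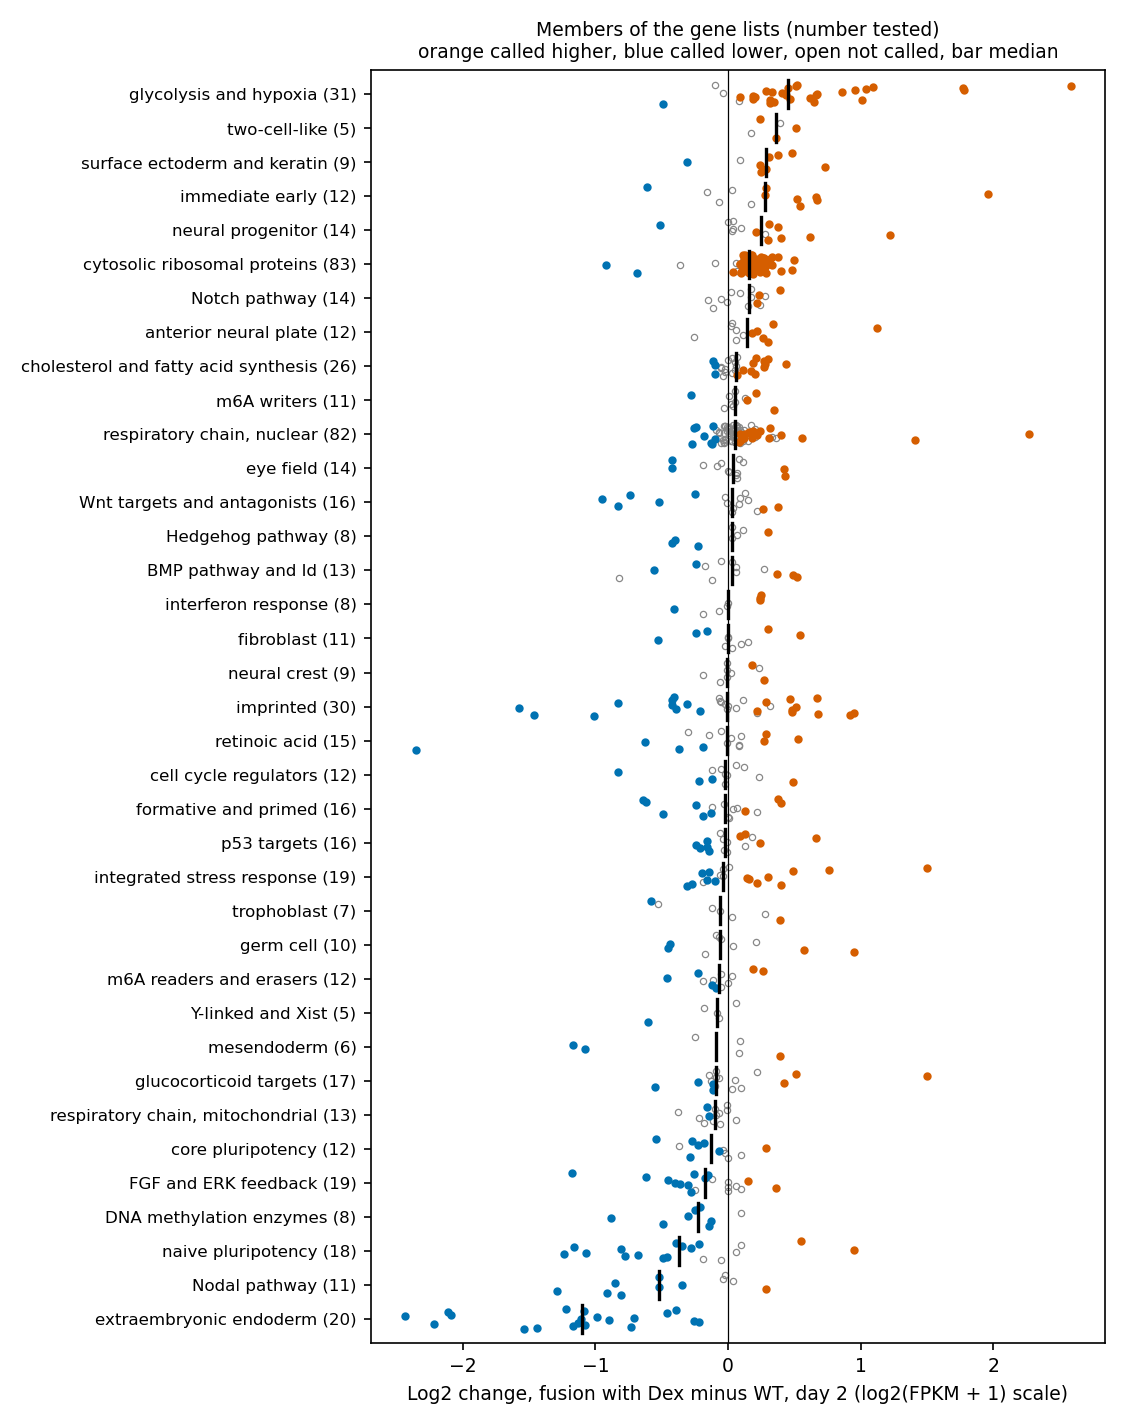
Log2 change at day 2, fusion with Dex minus WT (x axis), of every tested member of the 37 gene lists (y axis, number tested in brackets), with the median as a bar. The endoderm list has the lowest median, -1.10, and the glycolysis and hypoxia list the highest, 0.45; most other medians lie within 0.3 of 0.

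Between days, the larger differences of day 2 were only partly those of the stem cells. Of the 44 genes higher by at least 1, 12 (27.3%) were called the same way at day 0, where 19% of all genes were called higher. At both days 5 were higher by at least 1, 11.4% of the list of day 2 and 4.72% of the 106 genes of day 0. Of the 115 lower genes, 68 (59.1%) were called the same way at day 0, where 30.8% of all genes were called lower. At both days 20 were lower by at least 1, 17.4% of the list of day 2 and 11.7% of the 171 genes of day 0. Over all genes, the difference between the cultures changed by at least 1 from day 0 to day 2 for 240 genes (1.47%) and from day 2 to day 4 for 320 (1.97%). At day 4, 21 of the 44 and 75 of the 115 were called the same way as at day 2, where 25.7% of all genes were called higher at day 4 and 19.1% lower. Set against the same WT libraries, the 44 higher genes had median differences of 1.45 in KO and 1.16 in the fusion line without Dex, beside 1.2 with Dex. The 115 lower genes had -1.44 and -1.22, beside -1.27. These groups share the WT libraries, and the members were chosen on the Dex culture, so the medians are given as description.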

How the data were processed

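Polyadenylated RNA of 32 libraries was measured by RNA-seq. The authors deposited 1 table of FPKM values of 55492 rows, written to 2 decimals, and the submitters' processing notes name STAR, Cuffdiff and mm10; versions and annotation are not given in the sources used here. Gene positions come from GENCODE M21 (GRCm38), and promoters from RefSeq (GRCm38.p6). Values were tested as log2(FPKM + 1) with limma 3.58.1 in R 4.3.3, in a model of 16 group means over all 32 libraries (residual degrees of freedom: 16). Genes had to reach 1 FPKM in 2 libraries. P-values were adjusted by Benjamini-Hochberg over 16276 genes, and the code was checked on simulated data. The depth per library was estimated from the steps of low values, of which 72.6% to 90.6% came out whole within 0.2 of a fragment (40% by chance). The limits given for 3 fragments cover counting error only. The genes named are Mettl3, Nr3c1, eGFP and Rax, members of 37 gene lists, and the 15 largest rises and falls among called genes with non-overlapping libraries, at least 2 FPKM in the higher group and no predicted, pseudogene, small RNA or antisense name. The comparison, members and lists were chosen with earlier results of these data known. Alternatives were the pseudocount, the filter, the scaling, the libraries fitted, a replicate block, and, added after seeing the data, leaving out chromosome 8.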

Additional observations from a re-analysis of the deposited data

Results flagged for a closer look

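For each gene here, the difference between the fusion line with Dex and WT shifted from one day to the next by 1 or more (log2 scale), by limma's test of the interaction (adjusted p under 0.05). Values are the change of that difference, and a negative value means that the Dex culture moved down relative to WT. From day 0 to day 2, members of the glycolysis and hypoxia list moved up: Adm by 2.53, P4ha2 by 1.7, Ndrg1 by 1.63 and Egln3 by 1.62. Other rises in that span were Ndufa4l2 (2.28), Ddit4 (1.6), Cox4i2 (1.31), Pgm1 (1.27), Vps39 (2.18), Ier3 (2.08), Krtdap (1.98), Anxa2 (1.33), Perp (1.28), Socs3 (1.27) and Muc2 (1.22). In the same span, members of the endoderm marker list moved down: Ttr by -2.11, Cubn by -1.6, Dab2 by -1.53 and Amn by -1.43. Further falls were Ctsh (-2.46), Apoa1 (-2.27), Apoa4 (-2.21), Pga5 (-2.01), Clic6 (-1.92), Aqp8 (-1.02), Egr1 (-2.66), H19 (-2.26), Cyp26a1 (-2.23), Cited1 (-2.19), Npl (-1.78), Lefty1 (-1.69), Dppa3 (-1.3), Igf2 (-1.11), Notum (-1.06) and Sox21 (-1.02).

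From day 2 to day 4, several of the genes that had moved up moved back: Ndufa4l2 by -1.95, Adm by -1.6, Pgm1 by -1.51, Egln3 by -1.32, Cox4i2 by -1.16 and Ddit4 by -1.13. Ier3 (-1.36), Anxa2 (-1.17) and Socs3 (-1.06) did so too. Further falls relative to WT in that span were Pou5f1 (-2.22), Cldn7 (-1.59), Eomes (-1.33), Fgf5 (-1.24), Dnmt3b (-1.17), Fabp7 (-1.92), Id1 (-1.45) and Egr1 (-1.14). Of the eye field list, Pax6 rose by 2.36, Lhx2 by 2.21 and Rax by 1.16, and the eGFP reporter row by 1.23. Sox21 (2.75), Phlda1 (2.52), Igf2 (1.9), Cyp26a1 (1.52), Axin2 (1.48) and Clic6 (1.03) rose in the same span. Pou5f1, level at day 2, stood at means of 398.62 FPKM in WT and 85.04 FPKM with Dex at day 4.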

How the results depend on the processing

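Of the 135 called genes that are named, none changed direction under any alternative run, and 15 lost the call under at least 1. Fitted on the 4 libraries alone, where fewer libraries and only these 2 groups estimate the spread, 2603 genes were called against 4782. Of the genes that differed by at least 1, 140 were shared with that fit. A pseudocount of 0.1 raised the number of genes called and changed by at least 1 from 159 to 462 at day 2, from 240 to 701 between days 0 and 2, and from 320 to 797 between days 2 and 4. A mean of at least 5 FPKM, which tests 9412 genes, left 66, 102 and 185. With 1 of the 4 libraries left out, 3552 to 3586 genes were called, and the lone library of a group was assumed to vary like the other groups. The 9 named genes that lost the call there were Krtdap, Vps39, Pagr1a, Pax6, Ythdf1, Ythdf3, Fkbp5, Klf9 and Cebpd. The other 6 were Sox3, lost with a pseudocount of 0.1, and Afp, Lefty1, Gli1, Alkbh5 and Fmr1, lost in the 4 libraries alone. Ythdf1 ranged from -0.11 to -0.06 and Ythdf3 from -0.13 to -0.10. Without the genes of chromosome 8, an alternative added after seeing the data, 4397 genes were called and 150 by at least 1. The trophoblast median of -0.059 became 0.035 at a mean of at least 5 FPKM, and ranged from -0.192 to 0.095 with 1 library left out; the cause was not tested. Replicate numbers did not pair the samples: duplicate differences of the 2 groups correlated at 0.02, and those of all 120 pairs of groups at -0.09 to 0.13. A replicate block gave 4754 calls. On a transcript of 2 kb, values under about 0.05 FPKM rest on 3 fragments or fewer, and this limit shifts with transcript length. Differences between groups that both lie under it were not detectable at this depth.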
